A study of Mus musculus with 4 samples.

Results

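The expression of 9 mouse genes was examined: Tlr3, Ddx58 (also called Rigi), Ifih1, Dhx58 and Zbp1, which encode sensors of nucleic acids, and Irf1, Irf3, Irf7 and Irf9, which encode transcription factors of the interferon system. The genes were chosen by name, with earlier results of these data known, so their counts beside those of all genes are descriptions. Every non-control probe carrying one of these names was taken, which gave 13 probes for 9 of the 34964 gene names on the array. The question behind the study was what AKT activity does to fibroblasts on their way to induced pluripotency. Mouse embryonic fibroblasts (MEFs), pooled from several male E13.5 embryos of an Oct4-EGFP transgenic line, received retroviral Oct4, Sox2 and Klf4 (OSK) with or without a virus for AKT-MER (OSKA when with it). AKT-MER is myristoylated AKT fused to a modified estrogen receptor, whose ligand is 4-hydroxytamoxifen (4OHT). From 3 days postinfection (dpi) the cells received 4OHT or vehicle, and RNA was taken at 8 dpi. One single-channel array was made for each of 4 groups, which were OSK cells given vehicle, OSK cells given 4OHT, OSKA cells given vehicle (AKT-nonactivated) and OSKA cells given 4OHT (AKT-activated). All groups thus carried the Oct4-EGFP transgene and the OSK viruses. The OSKA cells also received 1 further retroviral vector, so a vector effect and an AKT-MER effect cannot be told apart, and neither can slide position and group. With 1 array per group there was no replicate check on any difference, no test was possible, and no p-value is given.

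Cells detect viral and misplaced nucleic acids with dedicated receptors. TLR3 binds double-stranded RNA in endosomes, whereas RIG-I (Ddx58) and MDA5 (Ifih1) are helicases that bind RNA in the cytosol and signal through the mitochondrial adaptor MAVS, and LGP2 (Dhx58) is a related helicase that modulates both. ZBP1 binds left-handed nucleic acids and can trigger cell death through RIPK3. These receptors lead to phosphorylation of IRF3 and IRF7, which switch on the interferon genes. Secreted interferon then acts through JAK kinases on STAT proteins, and a complex that holds STAT2 and IRF9 binds the interferon-stimulated response element (ISRE). IRF1 is a further activator, and a gamma-activated site is the other element through which interferons act. Many sensors, as well as Irf7, are themselves induced by interferon, and fibroblasts are a classical cell type in which this response was studied.

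Promoter sequences show whether such elements lie next to the members. RefSeq windows from 250 bases before to 50 bases after the transcript start (assembly GRCm38.p6) were held for 7 of the 9 genes, in 9 windows. Dhx58 and Zbp1 were not among them. The core of the ISRE (GAAA, any 2 bases, GAAA) and the gamma-activated site (TTCNNNGAA) were searched on both strands. The ISRE core was found for Ddx58 and Ifih1, and in 3.44% of all 32851 windows. The gamma-activated site was found in the first of the 2 Irf1 windows, and in 8.3% of all windows. Neither was found for Tlr3, Irf3, Irf7, Irf9 or the second Irf1 window. A core with a single spacer base, GAAANGAAA, was added after the sequences had been seen. It stood once in the Ddx58 window and in 3.17% of all windows. The matches are shown first, each as 30 bases along the gene's strand with the match in capitals.
Ddx58 (chr4:40239804-40239833, minus strand; the match begins at base 3 of the transcript and reads as the ISRE core on the opposite strand): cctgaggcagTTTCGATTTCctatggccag
Ifih1 (chr2:62646206-62646235, minus strand; the match begins at base 33 of the transcript): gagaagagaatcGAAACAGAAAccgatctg
Irf1 (chr11:53769914-53769943, plus strand; the match begins 90 bases before the start): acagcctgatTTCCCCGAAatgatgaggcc

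Of the remaining sequence, the 250 bases before the start are given for Ddx58, where the capitals mark the core with a single spacer base, 60 bases before the start, and for Irf7, the gene with the greatest difference between arrays, which held no match and has no capitals.
Ddx58 (chr4:40239826-40240075, minus strand): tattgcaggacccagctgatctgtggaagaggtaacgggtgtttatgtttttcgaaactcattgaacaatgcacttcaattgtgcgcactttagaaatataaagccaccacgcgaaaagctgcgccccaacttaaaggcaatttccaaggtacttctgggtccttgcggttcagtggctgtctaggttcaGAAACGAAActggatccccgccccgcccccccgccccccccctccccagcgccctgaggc
Irf7 (chr7:141266425-141266674, minus strand): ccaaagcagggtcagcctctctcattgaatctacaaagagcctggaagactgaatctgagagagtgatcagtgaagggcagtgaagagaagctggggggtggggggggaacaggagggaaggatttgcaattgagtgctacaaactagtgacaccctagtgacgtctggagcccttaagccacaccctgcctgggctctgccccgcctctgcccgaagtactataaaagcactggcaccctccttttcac
A match is a description of the letters, and no binding was measured.

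On each array 52.4 to 55.4% of the non-control spots were well above background, and the 75th percentile of intensity lay between 377 and 462. A level is the log2 intensity of a probe relative to that percentile, and a probe is called measured where it was well above background. The labels were checked on Esr1, whose brightest probe, reporting the receptor part of AKT-MER, was measured on both OSKA arrays (levels 3.11 and 3.32 without and with 4OHT) and on neither OSK array. Among the vehicle arrays, OSKA exceeded OSK at least 219-fold. One free-text label speaks of inactive AKT-MER for the array titled OSKA with 4OHT, and the title was used. All 7 fibroblast markers were measured on all arrays. Of 9 markers of macrophages and dendritic cells, 8 were measured on some array and 7 on all 4, among them Csf1r and Adgre1, while Flt3 was measured on none and Itgax on 1. Of 4 pluripotency markers, Nanog and Dppa5a were measured on all arrays, and Zfp42 and Esrrb on none. Dppa5a was dim, with intensities of 21.7 to 31.7. The Nanog probes disagreed for 4OHT in OSK cells, at 0.53 for the brightest and −0.53 for a further one.

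Each gene is represented by its brightest probe, whose level is compared between arrays and not with that of other genes. The probes lie, in mm9 coordinates of the files, at chr8:46481729-46481788 for Tlr3, chr4:40151893-40151952 for Ddx58, chr2:62435507-62435566 for Ifih1, chr11:100556271-100556330 for Dhx58 and chr2:173039307-173039366 for Zbp1, all on the minus strand. Those of the transcription factors lie at chr11:53590746-53590805 for Irf1, chr7:52257700-52257759 for Irf3 and chr14:56228806-56228865 for Irf9, on the plus strand, and at chr7:148450664-148451014 for Irf7, on the minus strand. The Irf7 coordinates span more than the 60 bases of a probe. The place of the probes within exons or untranslated regions was not analysed here.

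Of the 9 genes, 8 were measured on all 4 arrays, and Tlr3 on 3. The level was highest on the array of AKT-activated cells for 6 of these 8 genes, namely Ddx58, Ifih1, Dhx58, Zbp1, Irf7 and Irf9, against 27.3% of the 19599 genes measured on all arrays. The same 6 genes stood in the order AKT-activated, AKT-nonactivated and then both OSK arrays, as did 11.3% of all genes. That order depended on the scaling. When the arrays were scaled to 7 spike-in probes, 2 of the 8 genes, Dhx58 and Irf7, and 1.88% of all genes stood in that order.

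**Figure D1:**
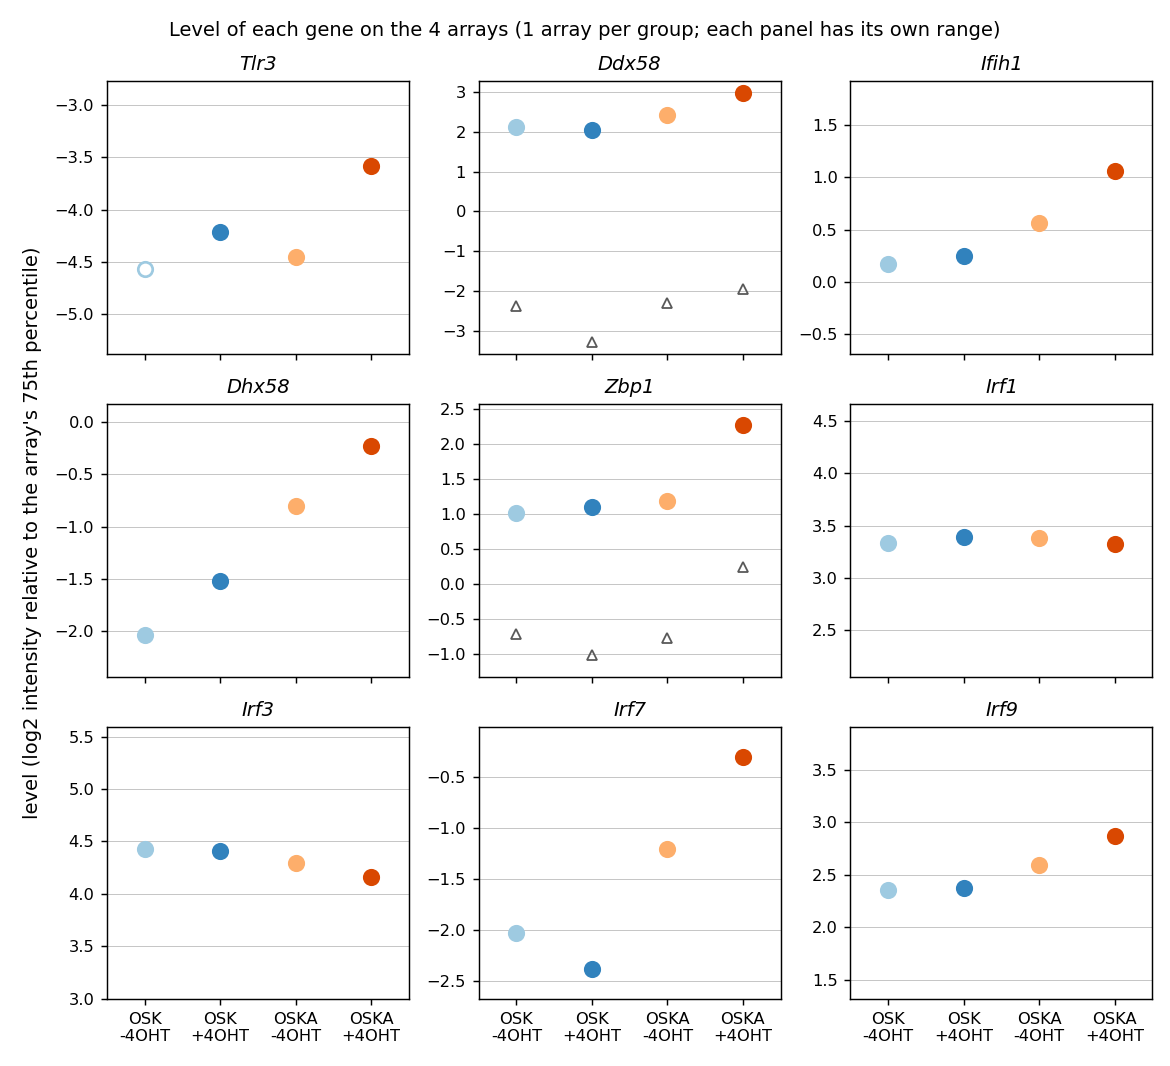
Levels (log2 intensity relative to the array's 75th percentile) of the 9 genes on the 4 arrays, 1 point per array and no error bar because each group had 1 array. Filled circles are the brightest probe, the open circle (Tlr3, OSK without 4OHT) was not well above background, and grey triangles are a further probe measured on all arrays (Ddx58, Zbp1). Irf7 runs from −2.39 to −0.31, while Irf1 stays between 3.33 and 3.40. Scaled to spike-in probes, the step from OSK to OSKA cells without 4OHT turns downwards for Ddx58, Ifih1, Zbp1, Irf1 and Irf9.

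Among the sensors, Dhx58 had levels of −2.03 and −1.52 in OSK cells without and with 4OHT, and of −0.81 and −0.23 in OSKA cells without and with 4OHT. Both OSKA values were above both OSK values. Without 4OHT the difference between OSKA and OSK was 1.23 ± 0.21 on the log2 scale (2.34-fold; here and in the following, ± is the error from the scanner software's error model, which covers one array's measurement and not the variation between cultures). With 4OHT the same difference was 1.29 ± 0.21 (2.45-fold). The 4OHT difference was 0.51 ± 0.21 in OSK and 0.58 ± 0.21 in OSKA cells, so Dhx58 was higher with 4OHT also in cells lacking AKT-MER. With spike-in scaling the former was 0.21, no greater than its error.

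Zbp1 behaved differently. Its level was 1.01 and 1.10 in OSK cells without and with 4OHT, 1.18 in AKT-nonactivated cells, and 2.27 in AKT-activated cells. Only the last array stood apart. 4OHT was accompanied by a difference of 1.09 ± 0.20 in OSKA cells (2.12-fold) against 0.09 in OSK cells. A further Zbp1 probe had levels of −0.72, −1.02, −0.77 and 0.24 on the same arrays, and its 4OHT difference in OSKA cells was 1.01. Both probes thus placed Zbp1 about 2-fold higher on the AKT-activated array than on the nonactivated one.

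The RNA helicase genes Ddx58 and Ifih1 differed less. Ddx58 had levels of 2.11 and 2.05 in OSK cells without and with 4OHT and of 2.44 and 2.98 in OSKA cells without and with 4OHT. The 4OHT difference was −0.07 ± 0.20 in OSK and 0.54 ± 0.20 in OSKA cells, and the difference between OSKA and OSK cells with 4OHT was 0.93 ± 0.20 (1.91-fold). The gene's further probe, which was dimmer (levels −2.38, −3.27, −2.30 and −1.94), differed most in OSK cells, where the 4OHT difference was −0.90 rather than −0.07. With 4OHT it gave 1.34 between OSKA and OSK cells (2.52-fold), so that the 2 probes fall on opposite sides of a 2-fold threshold.

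Ifih1 had levels of 0.17 and 0.25 in OSK cells and of 0.56 and 1.06 in OSKA cells, again without and with 4OHT. Its 4OHT difference was 0.07 in OSK and 0.50 ± 0.20 in OSKA cells, and the difference between OSKA and OSK cells with 4OHT was 0.81 ± 0.20 (1.76-fold). Its further probe was measured on no array. Without 4OHT, OSKA minus OSK was 0.32 for Ddx58 and 0.39 for Ifih1, but −0.12 and −0.05 with spike-in scaling.

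Tlr3 was near the limit of measurement. Its intensity was 19.5 in OSK cells without 4OHT, where it was not well above background, and 20.3, 18.5 and 32.1 in OSK cells with 4OHT, AKT-nonactivated and AKT-activated cells. The lowest intensity among probes well above background was at most 18.2 per array. The 4OHT difference in OSKA cells was 0.87 ± 0.36 (1.83-fold), but 0.22 after another background correction (normexp) with quantile normalization. Compared with OSK cells without 4OHT, the bounds were 1.28-fold in OSK cells with 4OHT and 1.09-fold in AKT-nonactivated cells. Both rested on the scaling, since with spike-in scaling these differences were 0.05 and −0.32.

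Among the transcription factors, Irf7, which encodes the interferon-inducible amplifier of interferon gene transcription, had the greatest difference of the 9 genes. Its intensity was 113 and 72.1 in OSK cells without and with 4OHT, 175 in AKT-nonactivated and 310 in AKT-activated cells, which are levels of −2.03, −2.39, −1.21 and −0.31. The 2 OSKA arrays lay above both OSK arrays. With 4OHT, OSKA exceeded OSK by 2.08 ± 0.22 (4.23-fold), which ranked 34 among 19909 genes measured in that comparison. With normexp it was 1.47 (2.77-fold) and ranked 51. Without 4OHT the difference was 0.83 ± 0.21 (1.77-fold). The 4OHT difference was −0.35 ± 0.22 in OSK and 0.90 ± 0.21 in OSKA cells, and the OSK array with 4OHT was the lowest of the 4. With normexp the former was −0.13, which is within that error.

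Irf9, which encodes the DNA-binding partner of STAT2, had levels of 2.35 and 2.38 in OSK cells and of 2.59 and 2.87 in OSKA cells, without and with 4OHT. The difference between OSKA and OSK cells with 4OHT was 0.49 ± 0.20 (1.41-fold). Irf1 had levels of 3.33, 3.40, 3.38 and 3.33 on the 4 arrays, and all its differences were smaller than their error of 0.20, but with spike-in scaling it was −0.24 for 4OHT in OSK cells and −0.39 for OSKA minus OSK without 4OHT. Its further probe was measured on no array. Irf3, the constitutively expressed factor that is activated by phosphorylation, had levels of 4.43, 4.41, 4.29 and 4.16. Its lowest level was in AKT-activated cells, with a difference of −0.25 ± 0.20 from OSK cells with 4OHT. With spike-in scaling its greatest difference was −0.58, for OSKA minus OSK without 4OHT.

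**Figure D2:**
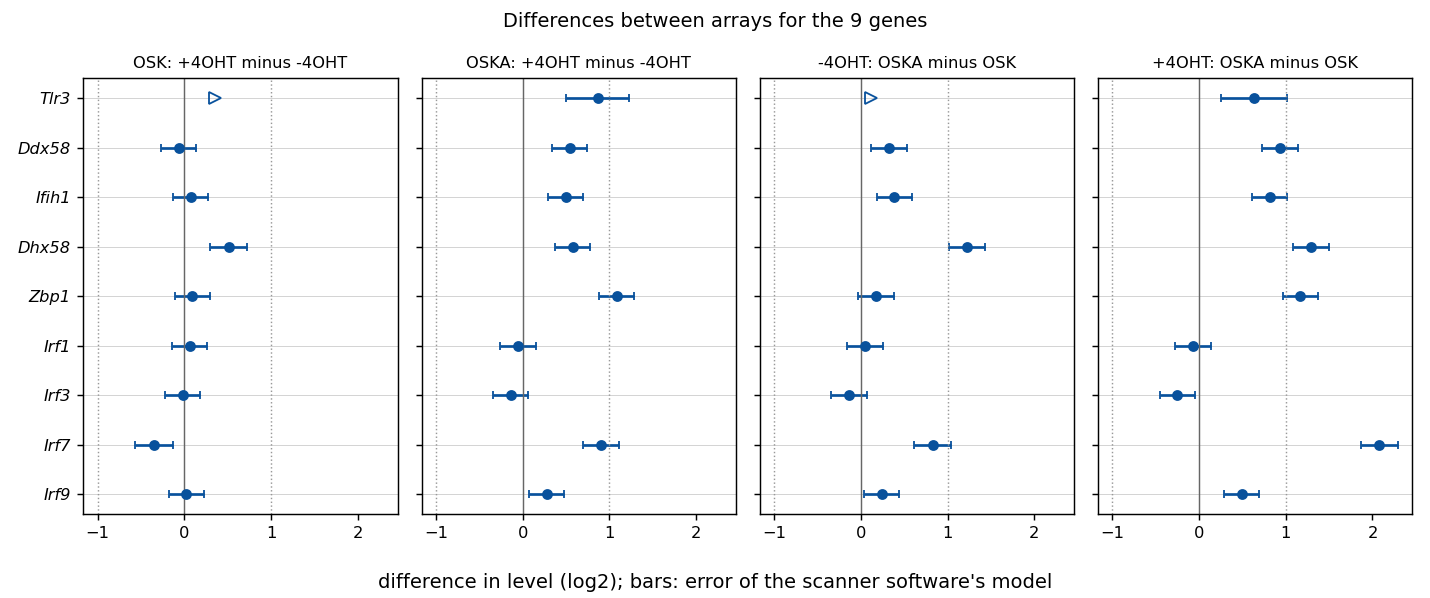
Differences in level (log2) for the 9 genes in the 4 comparisons, with the error of the scanner software's model as bars. Open triangles are lower bounds for Tlr3, which was not measured in OSK cells without 4OHT (with spike-in scaling they are 0.05 in the first and −0.32 in the third comparison), and dotted lines mark 2-fold. Irf7 lies at −0.35 in OSK cells and at 0.90 in OSKA cells for 4OHT. With spike-in scaling the differences of Ifih1, Zbp1, Irf1 and Irf9 in the first comparison, and of Ddx58, Ifih1, Zbp1, Irf1 and Irf9 in the third, change sign.

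The effect of 4OHT in cells lacking AKT-MER was small for the brightest probes of these genes. Between OSK cells with and without 4OHT, 8 of the 9 genes were measured, their median difference was 0.04, and 5 were higher by any amount, against 49.4% of 19927 genes. With spike-in scaling the median was −0.26, against −0.30 over all genes, and 1 of the 8, Dhx58, was higher. None was 2-fold higher or lower, against 0.617% and 0.276% of all genes, whose median was −0.00. Dhx58 at 0.51 and Irf7 at −0.35 were the extremes among the brightest probes. The further probe of Ddx58 lay lower, at −0.90 ± 0.25, and that of Zbp1 at −0.31.

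In OSKA cells, which express AKT-MER, 9 genes were measured with and without 4OHT, and their median difference was 0.54 against −0.03 over 20363 genes. Of the 9 genes, 7 were higher with 4OHT, against 45.2% of all genes. Only Zbp1 was at least 2-fold higher, against a background of 2.01%, and none was 2-fold lower, against 0.899%. All 9 differences kept their sign with spike-in scaling. The 4OHT difference in OSKA minus that in OSK cells, which uses all 4 arrays, was 1.25 ± 0.30 for Irf7, 0.99 for Zbp1, 0.61 for Ddx58, 0.42 for Ifih1, 0.25 for Irf9, 0.07 for Dhx58 and −0.12 for both Irf1 and Irf3, the last 2 turning positive (0.23) with spike-in scaling. Of these, Irf7 alone passed 2-fold upwards, as did 2.61% of 19599 genes, and none downwards, as did 2.66%. That call depended on the probe and the background correction. With normexp Irf7 was 0.84 and Zbp1 1.01, the further probes of Ddx58 and Zbp1 gave 1.26 and 1.31, and with spike-in scaling both Irf7 (1.60) and Zbp1 (1.34) passed.

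Without 4OHT, OSKA cells had a median difference from OSK cells of 0.28 over the 8 measured genes, against −0.02 over 20248 genes. Of the 8 genes, 7 were higher by any amount, against 47% of all genes. Dhx58 alone was at least 2-fold higher, against a background of 1.09%, and none was 2-fold lower, against 0.928%. Dhx58 fell short of 2-fold with spike-in scaling (0.78) and with normexp (0.91, or 0.88 after quantile normalization). Spike-in scaling moved the median of all genes to −0.46 in this comparison, and the signs of 5 of the 8 genes turned. Relative to that shifted median the differences were 1.24 for Dhx58, 0.84 for Irf7, 0.41 for Ifih1, 0.34 for Ddx58, 0.26 for Irf9, 0.19 for Zbp1, 0.06 for Irf1 and −0.12 for Irf3.

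With 4OHT, OSKA cells exceeded OSK cells by a median of 0.81 over the 9 genes, against −0.05 over 19909 genes. Irf7, Dhx58 and Zbp1 were at least 2-fold higher, against a background of 1.92%, and none was 2-fold lower, against 1.12%. Of the 9 genes, 7 were higher by any amount, against 42.9% of all genes, and these 7 lay above the 90th percentile of all differences. With a threshold of 1.5-fold, 0 of 8 genes were higher with 4OHT in OSK cells and 3 of 9 in OSKA cells, against 4.35% and 5.06% of all genes. OSKA exceeded OSK by 1.5-fold for 2 of 8 genes without 4OHT and 6 of 9 with it, against 5.67% and 5.46%. The comparisons share arrays, so their values are not independent of each other.

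**Figure D3:**
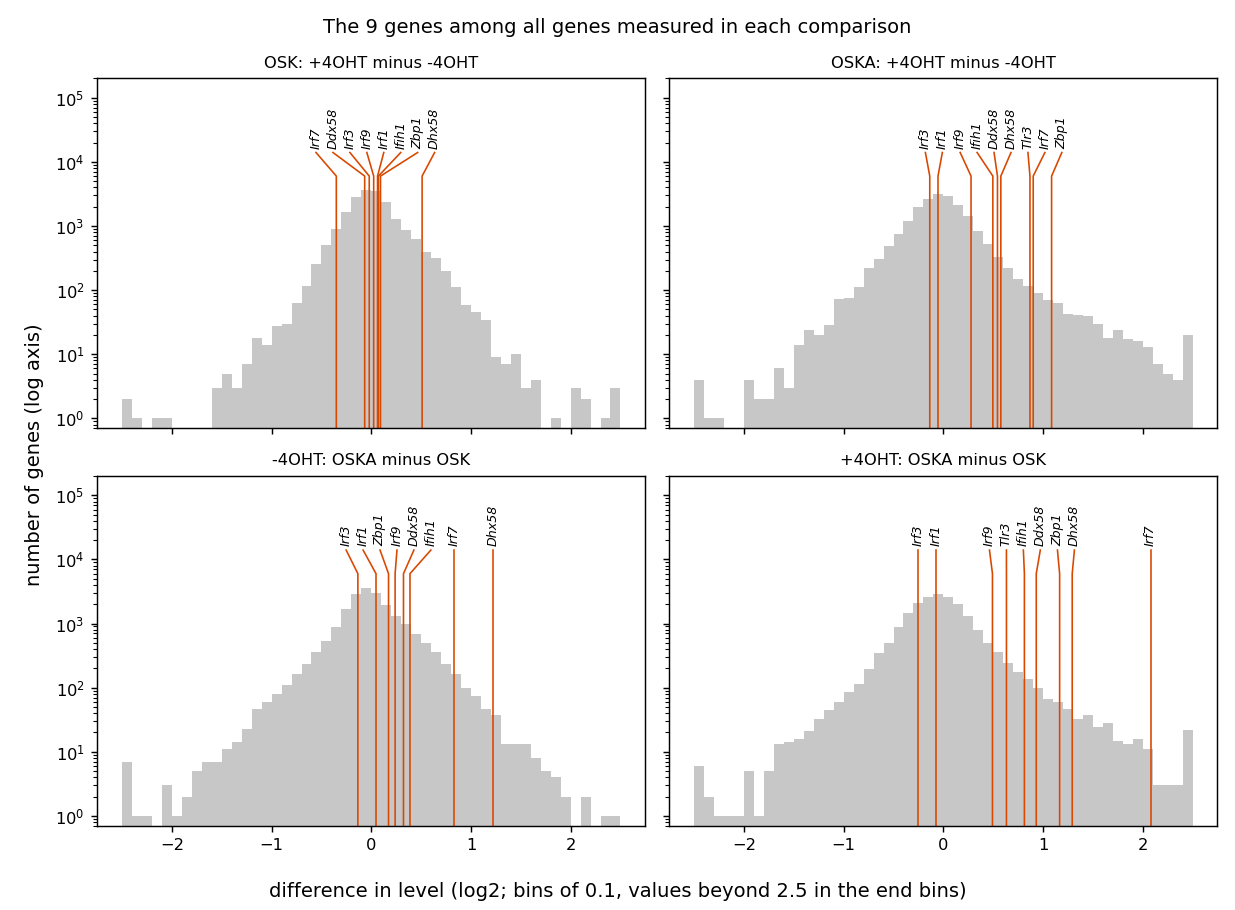
Number of genes (log axis) by difference in level (log2, bins of 0.1) in the 4 comparisons, with the 9 genes as vertical lines. In OSKA against OSK cells with 4OHT, 7 of the 9 lines stand to the right of the bulk, from 0.49 for Irf9 to 2.08 for Irf7, whereas Irf3 and Irf1 stand inside it. In OSK cells the 4OHT differences of the brightest probes of all measured members lie between −0.35 and 0.51. The further Ddx58 probe, at −0.90, is not drawn.

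The genes upstream and downstream were then described from lists, by their counts. The shares of all genes given above for each comparison are the background of these counts. Among 16 other nucleic acid sensors, 15 were measured on some array. The double-stranded RNA sensors Oas1a, the brightest of the list, and Oas2 passed 2-fold with 4OHT, where OSKA exceeded OSK by 1.18 and 1.44. Oas3, measured on the AKT-activated array alone, was at least 2.02-fold higher there than in AKT-nonactivated cells. Tlr8, a sensor of single-stranded RNA, exceeded OSK by at least 2.42-fold in AKT-nonactivated cells, since it was not measured in OSK cells given vehicle, but the bound was 1.78-fold with spike-in scaling. All 15 adaptors and kinases, from Mavs to Ripk3, were measured on all arrays, and none differed by 2-fold in any comparison. Their medians lay between −0.01 and 0.05, except that OSKA minus OSK without 4OHT was −0.45 and 4OHT in OSK cells −0.29 with spike-in scaling, near the shifted medians of all genes. Trim25 was the brightest.

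The interferon genes gave little signal. Of 19 listed genes, 4 had no probe of that name, 11 were measured on some array and 5 on all. Ifnb1, a main interferon gene of fibroblasts, was measured on the AKT-nonactivated array alone, at a level of −3.52, at least 2.38-fold higher than in AKT-activated cells and at least 2.22-fold higher than in OSK cells given vehicle. Ifnk was likewise measured there alone, with bounds of 3.00-fold and 2.38-fold. With spike-in scaling the bounds against OSK cells given vehicle were 1.64-fold for Ifnb1 and 1.75-fold for Ifnk. None was 2-fold higher in AKT-activated cells, and Ifna14 differed there by −1.17 from AKT-nonactivated cells and by −1.68 from OSK cells with 4OHT. Ifna7 had a 4OHT difference of −2.14 in OSK cells, and was at least 9.30-fold lower in AKT-nonactivated than in OSK cells, both without 4OHT. The Ifna genes are near-identical copies, and these probes were dim, so their assignment is uncertain. With normexp these differences were −0.36 and −0.65 for Ifna14 and −0.92 for Ifna7, all short of 2-fold. Ifnl3 was the brightest of the list.

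Of the 11 receptor and JAK-STAT genes, 10 were measured on all arrays. Stat2, which encodes the partner of IRF9, passed 2-fold when 4OHT was given, where OSKA exceeded OSK by 1.04, but not with spike-in scaling (0.95) or normexp (0.997). Jak1 was the brightest. Of the 7 other IRF family and cofactor genes, 6 were measured and none reached 2-fold, but Irf2 had a 4OHT difference of −0.73 in OSK cells, which was −1.03 with spike-in scaling. Irf2bp2 was the brightest.

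Of 17 genes listed as inhibitors, 2 passed 2-fold in OSKA against OSK cells with 4OHT, against 1.92% of all genes. The list median was 0.01. Isg15, a ubiquitin-like modifier, was higher there by 2.08 and Usp18, the protease that removes it, by 1.89. The 4OHT difference of Isg15 in OSKA cells was 1.13. No other gene of the list reached 2-fold in any comparison, but Rnf125 did with spike-in scaling. It went from −0.77 to −1.07 for 4OHT in OSK cells and from −0.94 to −1.38 for OSKA minus OSK without 4OHT. Socs3, the brightest, differed by −0.75 between OSKA and OSK cells with 4OHT. Of 12 interferon-stimulated effectors, 12 were measured on all arrays, Bst2 being the brightest. When 4OHT was given, OSKA exceeded OSK by a median of 1.82. Of the 12, 9 passed 2-fold, against 1.92% of all genes, namely Ifit1, Ifit3, Mx1, Mx2, Rsad2, Oasl1, Oasl2, Ifi44 and Xaf1. In OSK cells the median 4OHT difference of the 12 was −0.01 and none reached 2-fold, against 0.617% of all genes higher and 0.276% lower. In OSKA cells it was 0.78, with 5 at least 2-fold higher, against 2.01% of all genes. With normexp 4 were left, since Ifit1 was 0.997, and the number over all genes went from 410 to 171. Without 4OHT OSKA exceeded OSK by a median of 1.03, with 6 at least 2-fold higher, against 1.09% of all genes. That last median was 0.59 with spike-in scaling, where Ifit1 alone stayed past 2-fold, and 0.68 with normexp, where Ifit1 and Ifit3 did. Over all genes, 43 were 2-fold higher there with spike-in scaling and 39 with normexp, against 221. The antiviral genes Rsad2 and Mx1 differed most, at 3.08 and 3.05 with 4OHT, but by 1.81 and 1.85 with normexp, below Ifit1 (2.17).

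**Figure D4:**
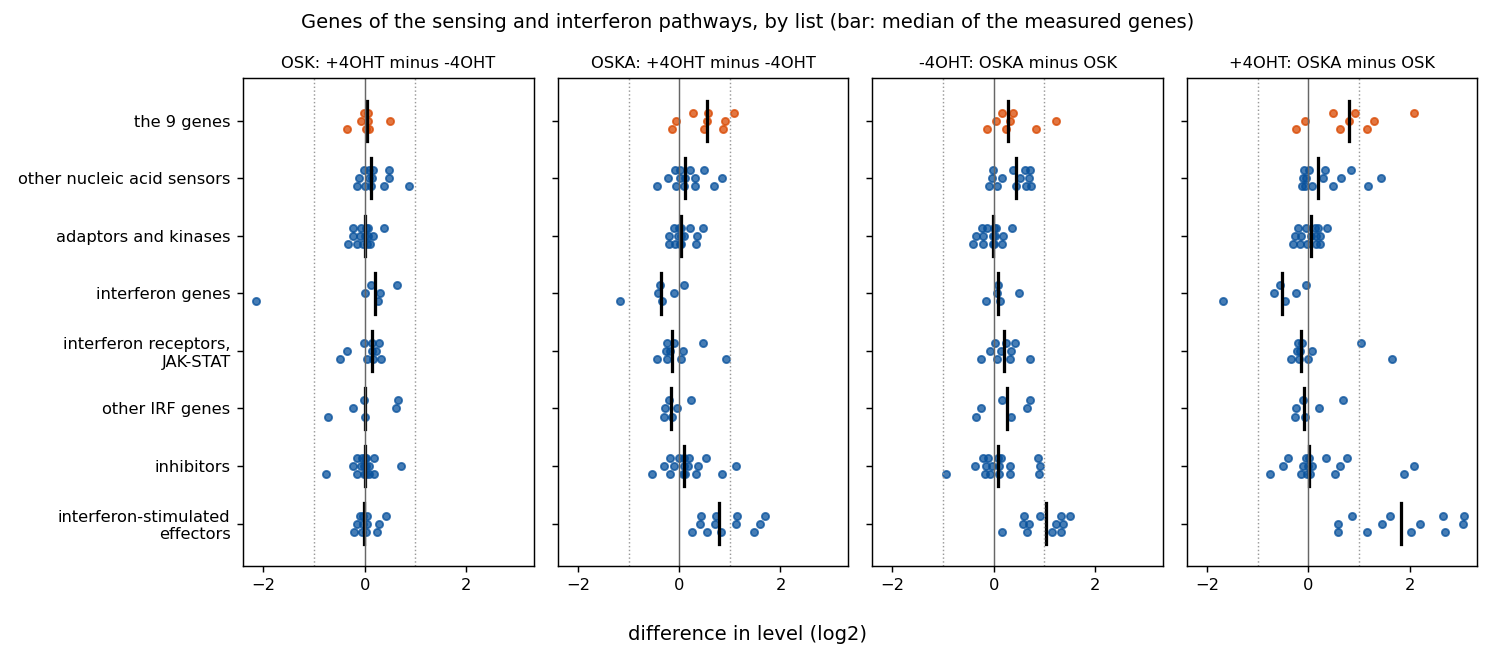
Differences in level (log2) of the measured genes of each list in the 4 comparisons, with black bars for the list median and dotted lines at 2-fold. The adaptors and kinases have medians between −0.01 and 0.05, whereas the effectors have a median of 1.82 and the 9 genes one of 0.81 in OSKA against OSK cells with 4OHT. In OSK cells the 4OHT medians of both lie near 0, and at −0.31 and −0.26 with spike-in scaling.

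Markers of other cells are given beside these values. The macrophage and dendritic markers had summed levels (log2 of the sum) of 8.16 and 8.36 in OSK cells without and with 4OHT, and of 8.37 and 8.17 in AKT-nonactivated and AKT-activated cells. Siglech, the brightest of them, weighs heavily in these sums, at levels of 6.75 to 7.03. Its further probes were measured on 0 and 1 arrays. The median 4OHT difference of the list was 0.50 in OSK and −0.21 in OSKA cells, where 1 of 7 was higher. Between OSKA and OSK cells it was 0.40 without 4OHT and −0.18 with 4OHT. With spike-in scaling these medians were 0.20 and −0.16 for 4OHT, and −0.04 and −0.27 between OSKA and OSK cells. The probes of Itgam disagreed for 4OHT in OSK cells, at −0.30 for the brightest and at 0.66 and 0.36 for the further ones. Of 4 lymphocyte markers, 2 were measured on all arrays (Cd3e and Cd79a) and 2 on none, among them Ncr1, with summed levels of the list between 0.20 and 0.68. The median 4OHT difference of these 2 was 0.36 in OSK and 0.51 in OSKA cells. Between OSKA and OSK cells it was −0.23 without and −0.07 with 4OHT. With spike-in scaling these medians were 0.05, 0.56, −0.67 and −0.17. Cd79a was dim, with intensities of 26.0 to 42.1. Of 3 endothelial markers, Kdr and Pecam1 were measured on all arrays and Cdh5 on none, with summed levels between 2.74 and 3.46. The part of these cells in the differences was not tested, and fewer cells of a type cannot be told apart from less RNA per cell.

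The genes with profiles most like the members were found among 14260 other genes with a symbol that were measured on all 4 arrays. By the distance between mean-centred profiles over the 4 arrays, the nearest to the members' median profile were Samd5 (0.06), Trex1 (0.06), Col3a1 (0.08), Muc16 (0.08) and Serpinh1 (0.08). Trex1 encodes an exonuclease that degrades cytosolic DNA, Col3a1 a fibrillar collagen and Serpinh1 a collagen chaperone. The members define that profile, so some of them lie near it by construction. Ifih1 lay at 0.036 and Ddx58 at 0.078 from it, and of the members Irf7 and Irf3 lay farthest, at 0.937 and 0.919. Over 4 points, such likeness is a description of these arrays.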

How the data were processed

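Per the labels, Cy3-labelled cRNA from 100 ng of RNA was hybridised to 4 Agilent arrays on 1 slide. The intensity of each spot in the deposited scanner files was obtained by the authors with Feature Extraction 10.7.3.1 (submitters' processing notes), with background and trend corrected and no normalization between arrays. The deposited series matrix holds the same intensity, at a ratio of 0.995 to 1.00 to the scanner values.

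Of 62976 spots per array, 59305 were not controls, and 104 to 155 marked as uneven or outliers were left out. No spot was saturated. Log2 intensities were reduced by each array's 75th percentile (Python 3.11.15, numpy 2.4.6, pandas 2.3.3), and spots of a probe were averaged into 55681 probes. Of these, 27509 (49.4%) were named through RefSeq. The 9 genes have 13 probes by name and by accession. A probe was measured where most of its spots were well above background. The brightest probe stood for a gene. A difference needed both arrays measured, and with 1 only, the bright level was compared with the dim one, or with the lowest level measured on the dim array if greater ("at least N-fold"). Called means at least 2-fold. The 4 comparisons were 4OHT in OSK cells, 4OHT in OSKA cells, and OSKA minus OSK without and with 4OHT. No replicates existed, so no test was run, and the number of arrays limits the precision. Probes spotted 10 times had a median SD of 0.058 to 0.067 per array. The code was tested on simulated data. Normexp used limma 3.58.1 in R 4.3.3 with an offset of 50. Named genes were all 9 members, list genes at least 2-fold apart in any comparison, the brightest of each list and the 5 nearest profiles. The values of some list genes that this rule names are not reported here. The members and lists were chosen with earlier results of these data known.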

Additional observations from a re-analysis of the deposited data

Results flagged for a closer look

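Irf7 differed in opposite directions with 4OHT, at −0.35 ± 0.22 in OSK cells and 0.90 ± 0.21 in OSKA cells on the log2 scale, each difference being larger than the error of the scanner software's model. With normexp the difference in OSK cells was −0.13, and with normexp and quantile normalization −0.20, both within that error. Each value is 1 array minus another, and the difference between the 2 effects was not tested, since there was 1 array per group.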

How the results depend on the processing

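No replicate could be left out, and no paired analysis was possible because each group had 1 array. Scaling to spike-in probes moved the median of all genes to −0.30 for 4OHT in OSK cells, 0.01 for 4OHT in OSKA cells, −0.46 for OSKA minus OSK without 4OHT and −0.14 with 4OHT. With it the median of the 9 genes was −0.26 for 4OHT in OSK cells and −0.16 for OSKA minus OSK without 4OHT, and 0 genes were at least 2-fold higher in the latter. That number was also 0 with normexp, with either the 75th percentile or quantile normalization. The share of higher genes among all those 2-fold apart went from 69.1 to 16.1%, from 69.1 to 75.7%, from 54.0 to 4.53% and from 63.2 to 51.1% with spike-in scaling, in the order of the comparisons above. At a 1.5-fold threshold, 3 genes were higher for 4OHT in OSKA cells, 2 for OSKA minus OSK without 4OHT and 6 with 4OHT. Over all genes, normexp with the 75th percentile left 21 higher and 4 lower, 171 and 36, 39 and 43, and 174 and 64, against 123 and 55, 410 and 183, 221 and 188, and 382 and 222. Without the filter on dim probes there were 1275 and 1214, 1893 and 1461, 1474 and 1529, and 1714 and 1448.

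For the 4OHT difference in OSKA minus that in OSK cells, the same alternatives were run after the data had been seen, as were those for the lists, the bounds and the rank of Irf7. There 0 genes passed 2-fold upwards with normexp and quantile normalization, and 2 each with spike-in scaling and with the mean of all probes, against 1.

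Of 34 differences of single genes in the 4 comparisons, 25 kept their sign under every alternative run, and of 304 values 275 moved by less than the error of the software, 16 of the other 29 with spike-in scaling. The greatest, Irf7 in OSKA minus OSK with 4OHT, ranged from 1.47 (normexp) to 2.09. Tlr3 was 0.11 there with normexp, against 0.63. The cause of these shifts was not tested. Signal over background limits Tlr3 and the interferon genes.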
